A study of Mus musculus with 4 samples.

Results

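The C-type lectin, Fc and paired myeloid receptor genes were described in mouse MLL-AF9 leukaemic cells after OHT or EtOH treatment. Members are the rows of the deposited table whose symbol names a Clec gene followed by a digit, an Fc gamma or Fc epsilon receptor chain, a Siglec, CD300, TREM, LILR or PIR gene, or is Sirpa, Tyrobp, Hcst or Mrc1. This gave 61 RefSeq transcripts of 57 symbols, out of 18061 transcripts of 16545 symbols. The rule uses names and no measured value, though it was set with earlier results of these data known.

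The OHT group was 2 samples of Ring1a-/-;Ring1bf/f Cdkn2a-/- cells of the C57BL/6 strain, kept 72 h in OHT. The EtOH group was 2 samples of the same cells kept 72 h in EtOH, so both groups carry the Ring1a-/- and Cdkn2a-/- genotypes by their labels. Leukaemic cells were taken out of mouse marrow and cultured in liquid medium. MLL-AF9 is an oncogenic fusion protein that drives myeloid leukaemia. OHT commonly stands for hydroxytamoxifen, which switches on recombinases that delete floxed alleles, and the labels name neither the recombinase nor its driver. Nothing in them tells if a group's samples were separate mice or cultures. The p-values thus set the group difference against a spread between samples that may be only technical. Cells that lack the floxed allele and received OHT were not analysed here, and effects of OHT itself and of RING1B loss cannot be told apart.

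The deposited file gives 1 mean of normalised reads per group and transcript. Each mean solved to whole reads of 2 libraries per group, called A (the larger size factor) and B here, with totals of 3841243 to 6255320 reads. A value per library is given below as normalised reads, meaning solved reads plus 1 divided by the library's size factor. A transcript is called where the authors' deposited table has its adjusted p below 0.05, and limma-voom on the solved reads gives a second test with a standard error. Rnf2, the targeted gene that encodes RING1B, had 716 and 798 normalised reads in OHT libraries A and B, against 687 and 585 in EtOH libraries A and B. Deletion of some exons need not lower a count over the whole transcript, and which exons are floxed is not in the labels, so Rnf2 is no check of them. Transcripts of the genes labelled -/- in both groups also had reads in every library. Ring1, the symbol of Ring1a, had 149 and 94.9 normalised reads with OHT, against 50.6 and 85.9 with EtOH, and Cdkn2a (NM_009877) had 44.5 and 52.5 with OHT, against 60.5 and 39.1 with EtOH. Whether these reads come from a part of the gene that remains was not tested. The progenitor and myeloid markers Spi1 and Cebpa had means of 1460 and 1206 with OHT, against 1353 and 1097 with EtOH. They were the 2 highest of 8 listed progenitor markers, followed by Cd48 at 408 with OHT and 306 with EtOH. The others were lower, with Ptprc at 56.9 with OHT and 63.8 with EtOH, and Itgam at 31.3 and 20.3. Cd34 had a mean of 77.3 with OHT and 33.0 with EtOH, and Flt3 25.6 and 23.0. Kit had 8 reads with OHT and 4 with EtOH. All 3 measured T cell markers lay at or below 5.21 normalised reads in every library.

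These receptors let myeloid cells read sugars, antibodies and self ligands. Activating members carry a tyrosine motif themselves (ITAM or hemITAM) or borrow one from the adaptors FcR gamma (Fcer1g) and DAP12 (Tyrobp), and then engage the kinase SYK. Inhibitory members carry an ITIM motif that recruits the phosphatases SHP-1, SHP-2 or SHIP, and many families pair an activating with an inhibitory gene side by side on a chromosome. In the myeloid lineage they set thresholds for phagocytosis, cytokine release and degranulation.

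Few members passed the authors' test, and those that did were CD300 genes. The authors' deposited table called 2 of the 61 rows, Cd300ld and Cd300lb, both higher with OHT, and none was called lower. The background was 5.48% of all rows called in either direction, 3.62% higher and 1.85% lower, so the count of members called is near the background. Counted without adjustment, 15 members had a p under 0.05 and were higher with OHT, where 7.82% of all rows were, and 1 was lower, where 6.64% of all rows were. The log2 fold change was positive for 47 of the 61 members, which is 77.0%, and for 51.7% of all rows in the authors' deposited table. Its median was 0.79 over the members and 0.04 over all rows. Limma-voom could fit the 35 members with at least 10 reads in 2 libraries. It called 10 of them higher, where 9.72% of all fitted rows were called higher, and 1 lower, where 5.49% were. A low member can pass that filter through its high group alone, so these 35 are not all members and their count is a description.

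Cd300ld and Cd300lb are shown with their promoters, beside those of Pirb and Fcgr4, which limma-voom called higher, and of Clec12a, its only lower call among the members. The windows run from 250 bases before to 50 bases after the RefSeq gene start in GRCm38.p6, a later build than the mm9 named for the deposited table, and are written 5′ to 3′ on the gene's strand. Capitals mark matches on either strand to GAGGAAGT, a binding sequence of the myeloid factor PU.1, to TTGCNNAA, one of C/EBP factors, or to TGANTCA, one of AP-1, and the matches shown do not overlap.
Cd300ld, chr11:114989837-114990136, minus strand: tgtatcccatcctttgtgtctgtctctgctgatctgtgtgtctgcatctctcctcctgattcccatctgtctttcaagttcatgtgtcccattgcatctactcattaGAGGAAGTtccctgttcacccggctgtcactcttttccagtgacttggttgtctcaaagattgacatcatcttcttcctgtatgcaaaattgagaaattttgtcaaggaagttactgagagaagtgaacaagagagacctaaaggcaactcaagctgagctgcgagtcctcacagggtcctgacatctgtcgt
Cd300lb, chr11:114934322-114934621, minus strand: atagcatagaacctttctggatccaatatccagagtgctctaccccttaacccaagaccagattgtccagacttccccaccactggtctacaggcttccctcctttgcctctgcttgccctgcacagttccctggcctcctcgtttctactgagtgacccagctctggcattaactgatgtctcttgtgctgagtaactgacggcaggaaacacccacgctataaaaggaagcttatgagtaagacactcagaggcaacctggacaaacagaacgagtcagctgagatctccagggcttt
Pirb, chr7:3720333-3720632, minus strand: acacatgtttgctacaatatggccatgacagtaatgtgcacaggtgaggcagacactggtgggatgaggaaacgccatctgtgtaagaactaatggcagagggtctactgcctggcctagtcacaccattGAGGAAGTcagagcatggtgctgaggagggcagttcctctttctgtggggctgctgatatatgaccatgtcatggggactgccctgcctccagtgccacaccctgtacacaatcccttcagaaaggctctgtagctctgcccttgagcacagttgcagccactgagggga
Fcgr4, chr1:171018676-171018975, plus strand: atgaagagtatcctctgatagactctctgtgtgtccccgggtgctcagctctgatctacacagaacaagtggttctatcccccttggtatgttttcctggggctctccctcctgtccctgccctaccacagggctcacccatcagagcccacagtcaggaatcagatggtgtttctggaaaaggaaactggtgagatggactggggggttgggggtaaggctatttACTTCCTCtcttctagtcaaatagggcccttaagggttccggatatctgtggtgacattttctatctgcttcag
Clec12a, chr6:129349994-129350293, plus strand: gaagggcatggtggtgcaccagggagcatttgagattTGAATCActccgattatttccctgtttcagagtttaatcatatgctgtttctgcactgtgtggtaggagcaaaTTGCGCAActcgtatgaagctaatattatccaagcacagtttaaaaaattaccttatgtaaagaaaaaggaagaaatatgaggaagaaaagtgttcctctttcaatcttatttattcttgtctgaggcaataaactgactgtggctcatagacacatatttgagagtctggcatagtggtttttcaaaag
The PU.1 letters begin 143 bases before the start of Cd300ld, 120 before that of Pirb and 24 before that of Fcgr4, where they stand on the other strand. Clec12a has the C/EBP letters 140 bases and the AP-1 letters 213 bases before its start, and the Cd300lb window has none of the 3 motifs. Among windows not shown of members that limma-voom called higher, Lilra6 has the PU.1 letters, and Cd300a, Cd300e, Clec7a and Trem1 do not. A window was found for 42 of the member symbols. PU.1 letters stood in 7 of these, Cd300ld, Cd300lh (Cd300ld3 in RefSeq), Cd300lf, Fcgr4, Pirb, Pira2 and Lilra6, against 3.20% of all 32851 windows. The PIR genes among them are near copies, so their matches are not separate observations. C/EBP letters stood in 9 of the 42 windows, against 10.8% of all, and AP-1 letters in 6, against 7.81% of all. A match describes letters and is not a binding site.

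Among the activating receptors, Cd300ld (NM_145437), which signals with FcR gamma, had 974 and 846 normalised reads in OHT libraries A and B, against 411 and 262 in EtOH libraries A and B. Both OHT libraries lay above both EtOH libraries. The authors' deposited table gives a 2.70-fold rise with an adjusted p of 0.000221, and limma-voom a log2 fold change of 1.44 ± 0.26 (SE). Cd300lb (NM_199221), a DAP12-coupled receptor also called LMIR5, had 1005 and 881 normalised reads in the OHT libraries, against 489 and 247 in the EtOH libraries. The groups again did not overlap, with EtOH library B the lowest. The authors' deposited table gives 2.56-fold with an adjusted p of 0.00203, and limma-voom a log2 fold change of 1.39 ± 0.30 (SE). Cd300lb stood at 1.93 by limma-voom when EtOH library A was left out and at 0.94 when EtOH library B was (adjusted p = 0.0171).

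**Figure D1:**
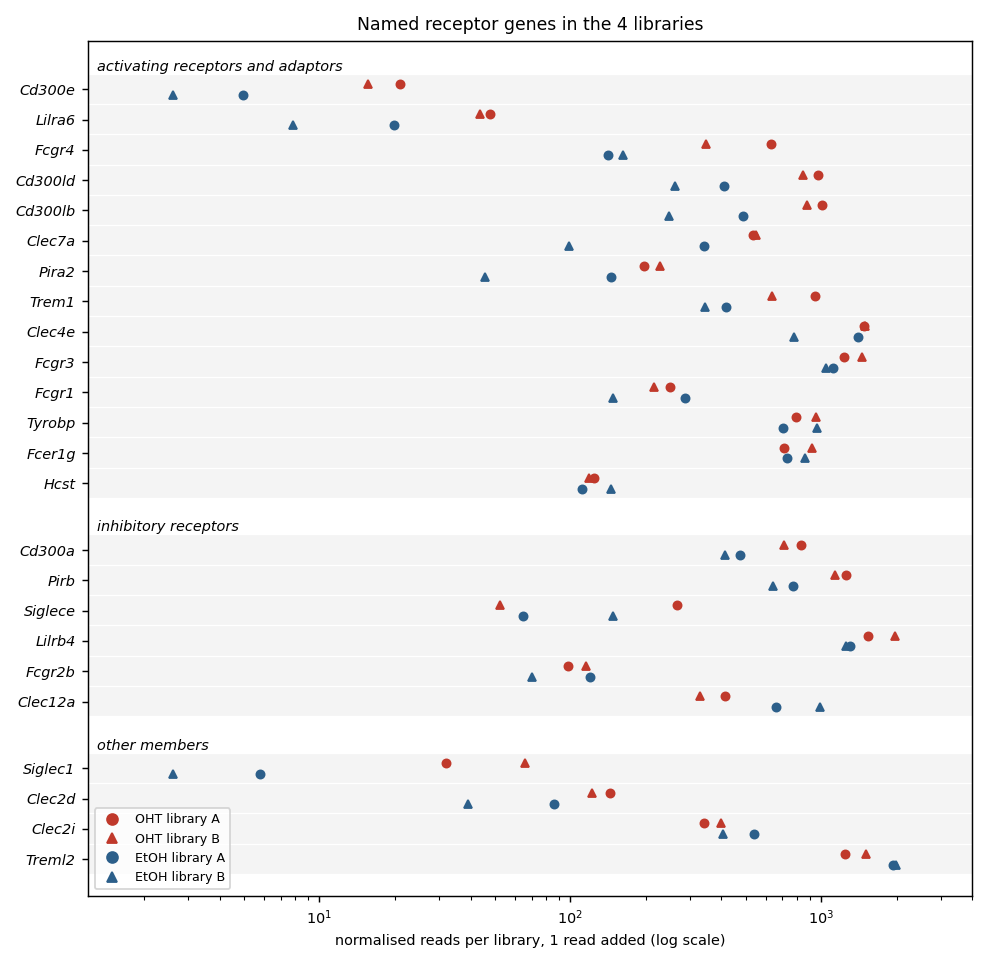
Normalised reads per library, with 1 read added, on a log scale for the 24 named member rows, grouped by role and ordered by log2 fold change. Red marks are OHT and blue marks EtOH, circles are library A and triangles library B. Cd300ld and Cd300lb lie between 846 and 1005 with OHT and between 247 and 489 with EtOH, while Tyrobp, Fcer1g and Hcst overlap.

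Limma-voom called 5 further rows of activating receptor genes higher that the authors' deposited table did not call. Fcgr4 (NM_144559), a receptor for IgG2a and IgG2b that pairs with FcR gamma, had 630 and 347 normalised reads in OHT libraries A and B, against 141 and 163 in the EtOH libraries. By limma-voom its log2 fold change was 1.66 ± 0.33 (SE, adjusted p = 0.0110), where the authors' deposited table lists 0.120 as adjusted p. Both OHT libraries were higher, but they differed from each other, and without OHT library A the limma-voom value was 1.21 with an adjusted p of 0.0554. Trem1 (NM_021406), a DAP12-coupled amplifier of inflammation, had 942 and 635 normalised reads with OHT, against 419 and 345 with EtOH. By limma-voom the log2 fold change was 1.02 ± 0.25 (SE, adjusted p = 0.0252), and 0.73 without OHT library A (adjusted p = 0.286). Clec7a (NM_020008), dectin-1, the receptor for fungal beta-glucan with its own hemITAM, had 537 and 548 normalised reads with OHT, against 342 and 99.0 with EtOH. The OHT libraries lay close together and the EtOH libraries far apart. By limma-voom it had a log2 fold change of 1.45 ± 0.43 (SE, adjusted p = 0.0455), against 2.46 when EtOH library A was left out and 0.67 when EtOH library B was (adjusted p = 0.0695).

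The other limma-voom calls among activating receptors were low in reads. Cd300e (NM_172050), a DAP12 partner in human cells, had 24 and 13 solved reads in OHT libraries A and B, against 5 and 1 in EtOH libraries A and B, a limma-voom log2 fold change of 2.52 ± 0.72 (SE, adjusted p = 0.0429). Lilra6, an activating PIR-type receptor gene, has a row (NR_028115) that RefSeq lists as non-coding. This row had 56 and 38 reads with OHT, against 23 and 5 with EtOH, with 1.85 ± 0.55 (SE, adjusted p = 0.0477). Cd300e reached the filter of 10 reads through its OHT libraries alone, so a fitted difference in that direction was built into its selection and its call is a description. Both rest on small counts, and limma-voom kept either call in 1 of the 4 fits that left out a library, the one without EtOH library A. Of the 50-base words in this Lilra6 transcript, 28.4% also stand in transcripts of other genes, so its reads and those of its relatives may not be separable. The second Lilra6 row, the coding NM_011090, had 23 and 30 reads with OHT, against 26 and 10 with EtOH. Its groups overlapped, and limma-voom did not call it (adjusted p = 0.562).

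Several activating receptors of high level did not pass either test. Fcgr3 (NM_010188), the low-affinity IgG receptor CD16, had 1232 and 1452 normalised reads with OHT, against 1118 and 1046 with EtOH, with a limma-voom log2 fold change of 0.31 (95% interval -0.14 to 0.76). Fcgr1 (NM_010186), the high-affinity IgG receptor CD64, had 249 and 215 with OHT, against 287 and 148 with EtOH, and its interval ran from -0.60 to 0.84. The Fcgr1 libraries overlapped and those of Fcgr3 did not. Clec4e (NM_019948), the mycobacterial glycolipid receptor Mincle, had 1476 and 1490 normalised reads with OHT, against 1396 and 781 with EtOH. Its limma-voom log2 fold change of 0.50 had an adjusted p of 0.235 with all libraries, and 0.93 and 0.0128 without EtOH library A. Pira2 (NM_011089), an activating PIR-A receptor, had 196 and 228 with OHT, against 145 and 45.6 with EtOH (limma-voom adjusted p = 0.0776). Of its 50-base words 94.0% stand in other genes' transcripts as well, so this value cannot be assigned to Pira2 alone.

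The 3 adaptors that the activating receptors share did not pass either test, and the groups overlapped for each. Tyrobp (NM_011662), encoding DAP12, had 789 and 953 normalised reads with OHT, against 701 and 962 with EtOH, with a limma-voom log2 fold change of 0.08 (95% interval -0.43 to 0.59). Fcer1g (NM_010185), encoding FcR gamma, had 709 and 921 with OHT, against 727 and 858 with EtOH, with 0.03 (95% interval -0.46 to 0.52). Hcst (NM_011827), encoding DAP10, which recruits PI3 kinase, had 124 and 118 with OHT, against 111 and 146 with EtOH, with -0.04 (95% interval -0.70 to 0.62). The signs of these 3 values turned with single libraries. Summed over the 24 rows of activating receptors without the adaptors, normalised reads came to 7635 and 6976 in OHT libraries A and B, against 4923 and 3305 in EtOH libraries A and B. The adaptors summed to 1623 and 1993 in the OHT libraries, against 1539 and 1966 in the EtOH libraries. In bulk RNA, a change in the number of cells that express a gene and a change in RNA per cell cannot be told apart.

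The remaining activating rows were low. Clec4n (NM_020001), dectin-2, had 49 and 50 reads with OHT, against 26 and 6 with EtOH, and Clec4d (NM_010819), the Mincle partner MCL, had 68 and 62 with OHT, against 32 and 22 with EtOH. The groups did not overlap for either gene, and the limma-voom adjusted p was 0.0583 for Clec4n and 0.0727 for Clec4d. Trem3, a DAP12-coupled relative of Trem1, had 147 and 52 reads with OHT, against 52 and 60 with EtOH, and Clec5a, another DAP12 partner, 28 and 10, against 15 and 4. Trem2, the lipid-sensing macrophage receptor, had 6 and 3 reads with OHT, against 2 and 0 with EtOH. Cd300c, Clec4a3, Pira6, Pira7 and the mast cell IgE receptor chain Fcer1a had 21 reads or fewer in either group, and Siglech, a plasmacytoid dendritic cell receptor, had 0 reads with OHT, against 2 with EtOH. Over all 27 activating rows, adaptors included, 25 had a positive log2 fold change in the authors' deposited table, where 51.7% of all rows had. The median of the 27 was 1.16. Of these rows 2 rose and none fell, and Cd300lh (Cd300ld3 in RefSeq) is described among the other rows.

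None of the 14 inhibitory rows passed the test of the authors' deposited table. There 13 had a positive log2 fold change, where 51.7% of all rows had, and the median of the 14 was 0.52. Of the 14 rows, 2 had at most 3 reads in each group. Limma-voom called Cd300a and Pirb higher and Clec12a lower. Cd300a (NM_170758), the ITIM receptor for phosphatidylserine and phosphatidylethanolamine, had 828 and 709 normalised reads with OHT, against 475 and 413 with EtOH, a limma-voom log2 fold change of 0.79 ± 0.22 (SE, adjusted p = 0.0361). Pirb (NM_011095), the MHC class I-binding inhibitory partner of the PIR-A receptors, had 1254 and 1139 with OHT, against 773 and 639 with EtOH, with 0.76 ± 0.21 (SE, adjusted p = 0.0356). Neither gene's groups overlapped, and the authors' deposited table lists an adjusted p of 0.116 for Pirb and a slightly smaller one, above the 0.05 threshold, for Cd300a. Both lost the limma-voom call in 3 of the 4 fits without 1 library, keeping it without EtOH library A, with adjusted p-values up to 0.338 for Cd300a and 0.276 for Pirb. Other genes' transcripts hold 37.3% of the 50-base words of Pirb.

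Clec12a (NM_177686), an ITIM lectin of myeloid cells that binds uric acid crystals and is used as a surface marker of human acute myeloid leukaemia, went the other way. It had 414 and 327 normalised reads in OHT libraries A and B, against 657 and 988 in EtOH libraries A and B, and both OHT libraries lay below both EtOH libraries. By limma-voom its log2 fold change was -1.11 ± 0.26 (SE, adjusted p = 0.0196), and the authors' deposited table gives -1.15 with an adjusted p of 0.149. Without OHT library B the limma-voom value was -0.95 with an adjusted p of 0.0725, and the other 3 fits without 1 library called it lower. None of its 50-base words stand in another gene's transcripts.

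Among the uncalled inhibitory receptors, Lilrb4 (NM_013532), gp49B, had 1539 and 1972 normalised reads with OHT, against 1296 and 1249 with EtOH. Its groups did not overlap, its limma-voom log2 fold change was 0.45 (95% interval -0.01 to 0.92), and every one of its 50-base words also stands in another gene's transcripts. Fcgr2b (NM_001077189), the single inhibitory Fc gamma receptor, had 97.4 and 115 with OHT, against 120 and 70.3 with EtOH, with overlapping groups. Siglece (NM_031181), an ITIM sialic acid receptor of neutrophils and monocytes, had 267 and 52.5 with OHT, against 64.7 and 148 with EtOH. OHT libraries A and B of Siglece were thus the highest and the lowest of the 4, and its limma-voom log2 fold change of 0.44 became -0.85 when OHT library A was left out and 1.51 when OHT library B was (adjusted p = 0.0113). Sirpa (NM_001177646), the receptor for the self signal CD47, had 105 and 63 reads with OHT, against 49 and 20 with EtOH (limma-voom adjusted p = 0.0630). Cd300lf had 52 and 36, against 32 and 14, and Clec4a2 (NM_001170333), the inhibitory lectin DCIR, 26 and 7, against 7 and 3. Siglecg, Siglec5 (Siglecf in RefSeq), Treml1, Clec4a4 and the second Clec4a2 row had 13 reads or fewer in either group.

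**Figure D2:**
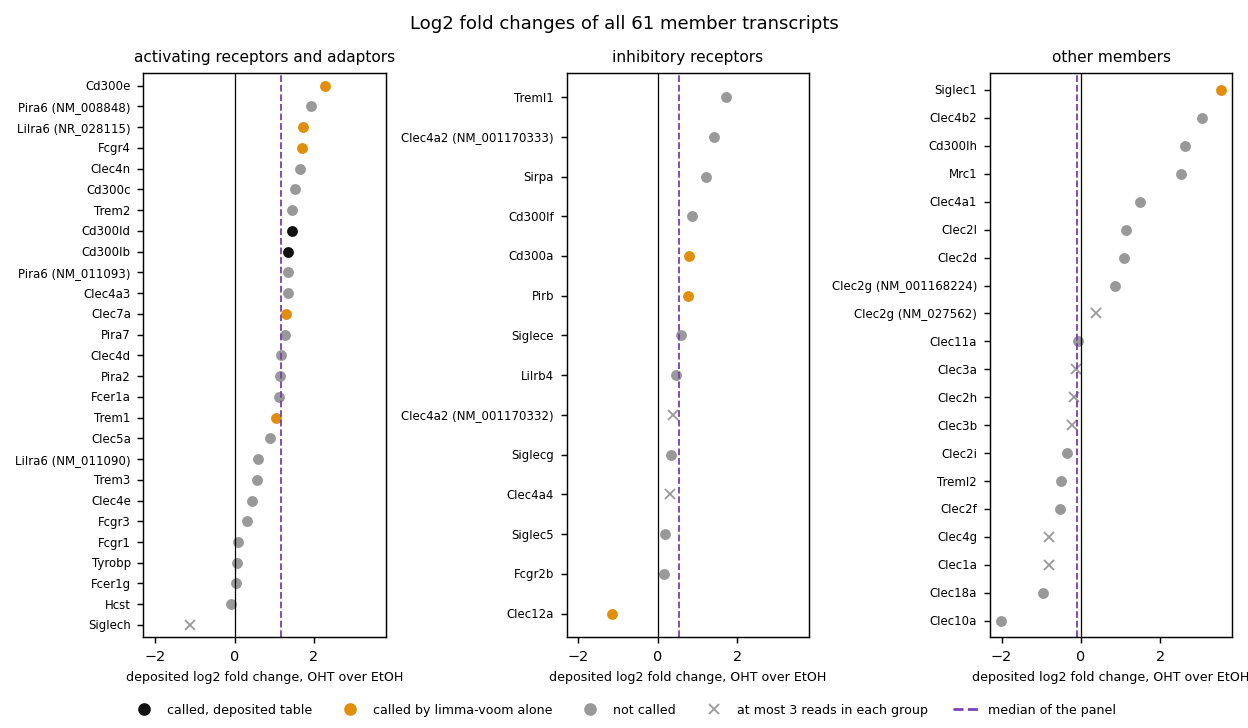
Deposited log2 fold change, OHT over EtOH, of each of the 61 member rows in 3 panels by role, with a dashed line at each panel's median. Black points are called in the authors' deposited table and orange points by limma-voom alone, and crosses mark rows with at most 3 reads in each group. The medians are 1.16 for activating receptors and adaptors, 0.52 for inhibitory receptors and -0.10 for the other members.

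Within families that pair an activating with an inhibitory gene, the balance was set out per library as normalised reads per kilobase of transcript. The CD300 activating sum (Cd300ld, Cd300lb, Cd300e and Cd300c) was 3.70 and 3.68 times the inhibitory sum (Cd300a and Cd300lf) in OHT libraries A and B, against 2.82 and 1.97 times in EtOH libraries A and B. Both OHT ratios lay above both EtOH ratios, and Cd300lh was left out of both sums. For the Fc gamma receptors, the sum of Fcgr1, Fcgr3 and Fcgr4 was 55.0 and 44.3 times Fcgr2b in the OHT libraries, against 31.0 and 48.5 times in the EtOH libraries, which overlap. For the PIR genes, Pira2 and both Lilra6 rows came to 0.266 and 0.340 times Pirb in the OHT libraries, against 0.303 and 0.140 times in the EtOH libraries, which overlap as well. With 2 libraries a group no test was made of these ratios. How reads were counted for genes with several transcripts is not known, so levels of different genes may not be comparable.

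The other 20 rows are lectins with binding, uptake or ligand roles and receptors whose signalling was not assigned here, and none passed the test of the authors' deposited table. Siglec1 (NM_011426), sialoadhesin of tissue macrophages, came closest, as the authors' deposited table lists an adjusted p of 0.0503. It had 37 and 58 reads in OHT libraries A and B, against 6 and 1 in EtOH libraries A and B, and limma-voom gave a log2 fold change of 3.68 ± 0.78 (SE, adjusted p = 0.0140). Without 1 library the limma-voom value ran from 3.03 to 4.49. Siglec1 reached the filter of 10 reads through its OHT libraries alone, so its limma-voom calls are a description and no support. Treml2 (NM_001033405), a TREM relative, had 1245 and 1513 normalised reads with OHT, against 1930 and 1990 with EtOH, a limma-voom log2 fold change of -0.52 (95% interval -0.96 to -0.06, adjusted p = 0.113). Clec2i (NM_020257), Clr-g, had 342 and 400 with OHT, against 538 and 405 with EtOH (limma-voom adjusted p = 0.338). Clec2d (NM_053109), Clr-b, a self ligand read by inhibitory NK cell receptors, had 144 and 122 with OHT, against 86.2 and 39.1 with EtOH (limma-voom adjusted p = 0.0796). The groups of these 3 genes did not overlap, with OHT lower for Treml2 and Clec2i and higher for Clec2d.

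A few of these rows had almost no reads with EtOH. Cd300lh is counted here because roles were matched on the deposited symbol, though its RefSeq name, Cd300ld3, was listed as activating. Mrc1 (NM_008625), the macrophage mannose receptor, had 20 and 7 reads in OHT libraries A and B, against 3 and 0 in EtOH libraries A and B, a read ratio of 8.51 (exact 95% counting interval 2.62 to 43.9). Clec4b2 had 25 and 5 reads with OHT, against 0 and 1 with EtOH, a ratio of 28.4 (4.72 to 1158). Cd300lh had 8 and 4 reads with OHT, against 0 in either EtOH library, at least 3.78-fold higher with the EtOH group set to a floor of 3 reads, and 82.1% of its 50-base words stand in other genes' transcripts. These intervals cover counting error only. None of these 3 rows was called in the authors' deposited table (adjusted p of 0.340 for Mrc1, 0.391 for Clec4b2 and 0.668 for Cd300lh). None passed the read filter. Limma-voom with no filter called all 3 higher, with adjusted p-values of 0.00956 for Mrc1, 0.00254 for Clec4b2 and 0.00636 for Cd300lh. The 3 rows are named here for their few EtOH reads, so a higher value was built in. Their calls with no filter are a description and no support. Clec10a, the galactose lectin MGL1, had 1 read in each OHT library, against 15 and 1 in EtOH libraries A and B, so its EtOH reads came mostly from 1 library. Clec4a1 had 54 and 9 reads with OHT, against 16 and 4 with EtOH, Clec11a, a secreted growth factor, 31 and 12, against 14 and 23, and Clec18a 18 and 9, against 17 and 28. Clec2g (NM_001168224) had 10 and 13 reads with OHT, against 3 and 7 with EtOH. The other 8 rows (Clec2l, Clec2f, Clec4g, Clec1a, Clec3a, Clec3b, Clec2h and the second Clec2g row) had 7 reads or fewer in either group.

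Levels per kilobase of transcript could be ordered for the 56 rows matched to a GENCODE transcript. As with the family ratios, levels of different genes may not be comparable. Tyrobp stood first in both groups, with a mean of 1545 normalised reads per kilobase with OHT and 1474 with EtOH. Lilrb4, Fcer1g, Fcgr3 and Treml2 followed with OHT, and Fcer1g, Treml2, Lilrb4 and Fcgr3 with EtOH. Lilrb4 averaged 1271 per kilobase with OHT and 921 with EtOH, and Fcer1g 1209 with OHT and 1176 with EtOH. The libraries of Lilrb4 and Fcer1g, next to each other in the order with OHT, overlapped there. Fcgr4 stood seventh with OHT (389 per kilobase) and fourteenth with EtOH (121 per kilobase).

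Members that neighbour each other in the RefSeq gene order, each less than 1 megabase from the next, fell into 7 groups of at least 3 genes. All 7 CD300 rows had positive log2 fold changes in the authors' deposited table, with a median of 1.44, and both OHT libraries above both EtOH libraries in each row, as 26.3% of all rows had. In gene order Cd300c lies between the called genes Cd300lb and Cd300ld. The 9 Clec4 rows were all positive too, where 51.7% of all rows were, with a median of 1.34. None of the 9 was called by either test with all libraries. Clec4a4 and the second Clec4a2 row had at most 3 reads in each group, so their signs rest on very few reads. The 4 PIR rows had a median of 0.96 and the 4 Fc receptor rows one of 0.23. In the group of Clec2, Clec12a, Clec1a and Clec7a genes 4 of 9 rows were positive, and it held Clec12a, called lower by limma-voom, as well as Clec7a, called higher. In the PIR group every row shares more than 10% of its 50-base words with transcripts of other genes, while all 5 TREM rows share none.

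**Figure D3:**
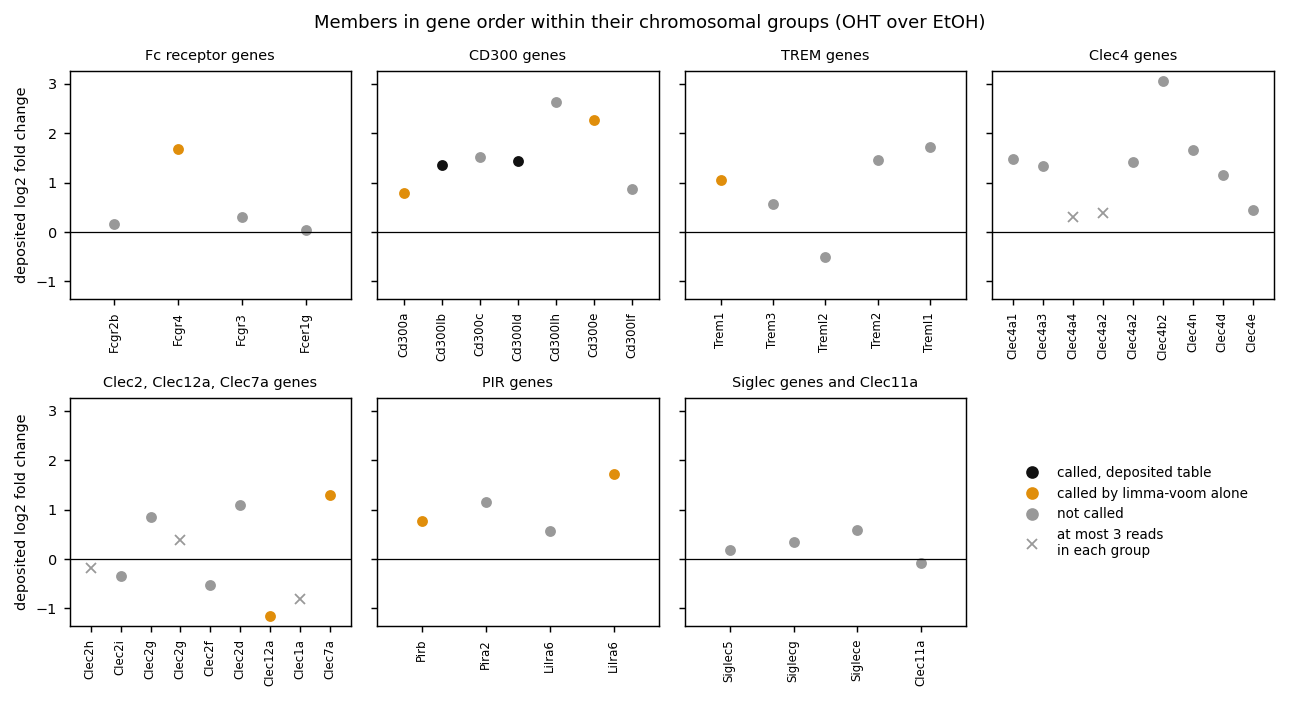
Deposited log2 fold change, OHT over EtOH, of members in RefSeq gene order within their 7 chromosomal groups. Black points are called in the authors' deposited table, orange points by limma-voom alone, and crosses mark at most 3 reads in each group. The 7 CD300 points and the 9 Clec4 points all lie above 0, and Clec12a lies at -1.15.

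The limma-voom calls changed when 1 library was left out, which leaves 1 library in a group. Over all fitted rows, higher calls also became more without EtOH library A and fewer in the other fits. A lost call need not mean a much smaller estimate. Without 1 library the log2 fold change ran from 0.67 to 0.90 for Cd300a and from 0.63 to 0.90 for Pirb. Of the 11 members called with all libraries, 5 kept the call when OHT library A was left out and 6 when OHT library B was. Leaving out EtOH library A kept 11, and leaving out EtOH library B kept 6. Cd300ld, Cd300lb and Siglec1 kept it in all 4 fits, Siglec1 with the limit given above. EtOH library B was below EtOH library A for 23 of the 35 fitted members, with a median log2 difference of -0.41, where the median over all 11338 fitted rows was -0.09. Among the activating rows that median was -0.65 over 19 rows. Counts of members called higher by limma-voom ran from 5 without OHT library A or EtOH library B to 15 without EtOH library A, and that fit without EtOH library A added Clec4n, Pira2, Clec4e, Sirpa and Clec2d.

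**Figure D4:**
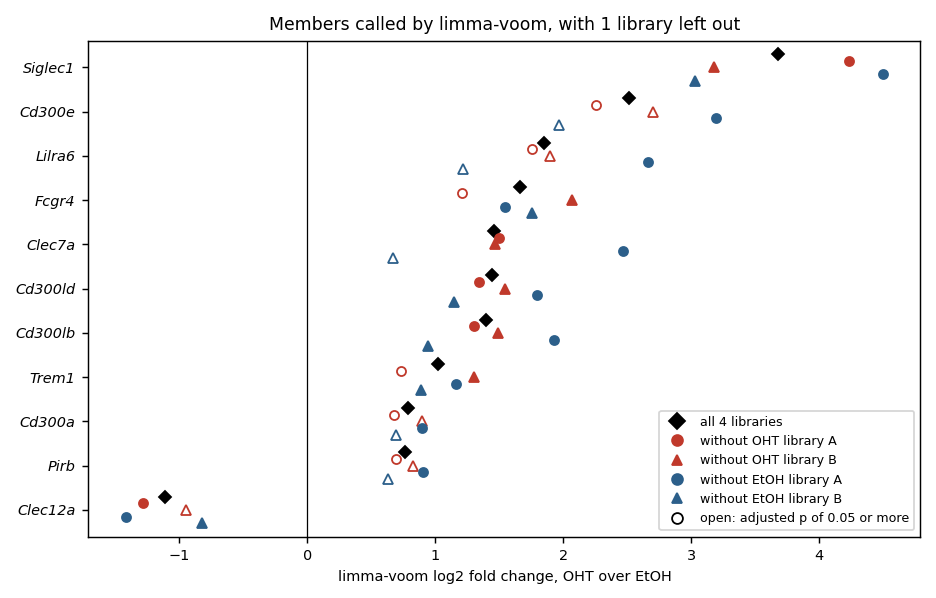
Limma-voom log2 fold change, OHT over EtOH, of the 11 members called with all libraries, and the same value with 1 library left out. Filled marks have an adjusted p under 0.05 and open marks do not. Cd300ld, Cd300lb and Siglec1 are filled throughout, and Clec7a runs from 0.67 without EtOH library B to 2.46 without EtOH library A.

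Genes that work with these receptors were followed in lists of other pathway members, each symbol standing for its highest transcript. These lists and the marker lists below were drawn up with earlier results of these data known, so their counts are a description. The authors' deposited table called none of 23 measured ITAM signalling enzymes and scaffolds, and limma-voom called 1 higher, the SRC-family kinase Fgr (adjusted p = 0.0409), and none lower. Plcg2, the phospholipase below SYK, had 2570 and 2532 normalised reads with OHT, against 2263 and 1763 with EtOH, and the kinase Prkcd 2432 and 2268, against 1741 and 1628. Of 8 measured ITIM effectors none was called by either test, with Dok3 at 1272 and 1130 with OHT, against 877 and 1227 with EtOH, and the kinase Csk at 1203 and 1371, against 1337 and 1335. The list medians were 0.48 and 0.23 in the authors' deposited table, against 0.04 over all rows.

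Some receptors outside the member rule passed the authors' test, which called 3.62% of all rows higher and 1.85% lower. Of 30 measured paired and lectin receptors outside the member rule, 4 rose in the authors' deposited table and none fell, with a median of 0.91. Cd302, an endocytic C-type lectin, had 415 and 319 normalised reads with OHT, against 129 and 124 with EtOH (2.91-fold). Ly75, the endocytic receptor DEC-205, had 428 and 261 with OHT, against 108 and 97.7 with EtOH (3.36-fold). Fcgrt, the neonatal Fc receptor, rose 2.76-fold and the activating SIRP Sirpb1b 3.01-fold by the authors' deposited table. Of 13 measured ligands 2 rose there, Pdpn, the podoplanin bound by CLEC-2, at 234 and 394 with OHT, against 62.2 and 22.1 with EtOH, and Clu. Of 8 receptors and integrins linked to FcR gamma or DAP12, 2 rose there. Itgax, the CD11c integrin chain, rose to 626 and 529 with OHT, against 99.5 and 80.7 with EtOH, and Plxna1, a semaphorin receptor that partners TREM2, to 2098 and 1863 with OHT, against 565 and 301 with EtOH. None of these lists held a lower call in either test.

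Some markers of mature myeloid cells were higher with OHT as well. The background for their counts was 3.62% of all rows called higher in the authors' deposited table and 1.85% lower. Of 15 measured monocyte and macrophage markers 6 rose in the authors' deposited table and none fell. Vcam1, Ly6c1 and Ly6c2 had negative log2 fold changes. Vcam1 had 202 and 48.0 normalised reads with OHT, against 227 and 350 with EtOH. The summed normalised reads of the 15 markers were 8515 and 9199 in OHT libraries A and B, against 5535 and 3299 in EtOH libraries A and B. Of these, the uncalled Emr1 alone had 2376 and 3316 with OHT, against 1883 and 635 with EtOH. Of 12 dendritic cell markers 3 rose and none fell, with sums of 2184 and 1951 with OHT, against 789 and 690 with EtOH. Of 14 neutrophil markers 3 rose (Cxcr2, Mmp9 and Mmp8) and none fell, with sums of 15049 and 14236 with OHT, against 9255 and 11760 with EtOH. The neutrophil sums lean on the called genes, as Mmp9 alone had 4372 and 4424 with OHT, against 2385 and 2250 with EtOH. The neutrophil median log2 fold change was 0.25, and 4 markers were negative (Ctsg, Ltf, Cebpe and Prtn3). Mast cell and basophil markers had no call, with sums of 4143 and 8675 with OHT, against 5852 and 4780 with EtOH, and eosinophil markers had none in the authors' deposited table and 1 lower by limma-voom (Epx), with sums of 742 and 783 with OHT, against 1120 and 1888 with EtOH. The authors' deposited table had no call among 8 progenitor, 4 B cell, 3 T cell and 4 NK markers. It had 1 higher call each among 3 erythroid (Epor), 5 megakaryocyte (Pf4) and 5 stromal and endothelial markers (Col1a1). Limma-voom called 1 of the 4 NK markers higher, the granule protease Gzmb (adjusted p = 0.0281), at 209 and 866 normalised reads with OHT, against 78.0 and 15.6 with EtOH. The summed NK markers were 239 and 896 with OHT, against 86.2 and 39.1 with EtOH, and the defining receptor Ncr1 lay at or below 1.66 in every library. The part of these markers in the member results was not tested.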

How the data were processed

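Total RNA of 2 OHT and 2 EtOH samples was made into libraries with the TruSeq RNA kit v2, per the labels' protocols, a kit that does not mark strand. TopHat, DESeq and mm9 are listed in the submitters' processing notes with no version or role, and the program that counted reads is not given in the sources used here. The authors' deposited table holds a signal per group, the mean of normalised reads over its 2 libraries per the file headers, with their ratio (OHT over EtOH), its log2, a p-value and an adjusted p. The adjusted p-value equals a Benjamini-Hochberg adjustment over all 18061 rows to within 2.63e-06. The columns held 0 samples of other series.

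Each mean was solved as reads plus 1, divided by size factors of 1.19 and 0.896 for OHT and 1.21 and 0.768 for EtOH. The solution was unique for 100% of rows in both groups, and means moved by up to 0.1% solved for 0.0831% (OHT) and 0.0664% (EtOH). No file links the solved libraries to the replicate numbers. The adjusted p of that table is the main test, and limma 3.58.1 (voom, R 4.3.3, at least 10 reads in 2 libraries, solved size factors, 2 residual degrees of freedom) gave the second test, adjusted over 11338 rows. Solver and fit were checked on simulated data. Alternatives were other scalings, thresholds and filters, 1 transcript per symbol, 1 library left out, and, chosen after seeing the data, rows with under 10% shared 50-base words. That sharing was counted in GENCODE M21 transcripts on both strands, for the 56 member rows that matched. Reads of overlapping, antisense or near-identical genes cannot be told apart.

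Members and lists were chosen with earlier results of these data known. Rows called by either test, or uncalled with a mean of at least 100 in either group, are named with values per library, and the lists outside by up to 4 calls or the 2 highest means. Fgr, Epx and Ncr1 fall outside this rule and were chosen after their values were seen.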

Additional observations from a re-analysis of the deposited data

How the results depend on the processing

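No paired analysis was possible because the deposited columns carry no replicate numbers. With 2 libraries a group, a missing call does not show an unchanged gene, and 21 of the 61 rows had at most 3 reads in at least 1 group. Against 2 members called higher and 0 lower in the authors' deposited table, limma-voom called 10 and 1. The counts were the same under total-read scaling and a trimmed mean of M values. With no filter limma-voom called 17 and 1 of the 61 members, where it called 1646 higher and 800 lower of all 18061 rows. Leaving out 1 library gave 5 to 15 higher and 0 to 1 lower. Adjusted p limits of 0.1 and 0.01 gave 3 and 2 higher, and 1 transcript per symbol, a 2-fold minimum and rows with under 10% shared 50-base words each gave 2, all with 0 lower. The cause of these differences was not tested. The inhibitory median was 0.52 over all 14 rows in the authors' deposited table and 0.61 by limma-voom over the 8 rows fitted, where it ran from 0.64 to 0.86 without 1 library. The activating median was 1.16 over all 27 rows there and 1.02 by limma-voom over 19 rows, with 0.67 to 1.198 without 1 library. The median of the other members, -0.10, was 0.64 by limma-voom, which fits 8 of the 20 rows, and ran from -0.041 to 0.71 without 1 library. Signs turned for uncalled members alone. Without 1 library the log2 fold change ran from -0.15 to 0.31 for Tyrobp, from -0.15 to 0.23 for Fcer1g, from -0.26 to 0.13 for Hcst, from -0.30 to 0.66 for Fcgr1, from -0.85 to 1.51 for Siglece and from -0.20 to 0.59 for Fcgr2b, and Hcst was 0.019 under total-read scaling.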
